A study of Rattus norvegicus with 12 samples.

Results

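Genes that mark the cells lining blood vessels were followed through fetal rat bones cultured with a glucocorticoid, with lithium, or with both. Of the 30045 gene symbols in the count files, these 10 were chosen by name, and all 10 were found. Cdh5, Pecam1, Cd93, Emcn and Esam are expressed by endothelial cells in general. Sox7, Sox17 and Sox18 form the SoxF group of transcription factors. Aplnr and Esm1 are linked to sprouting vessels, Esm1 as a marker of tip cells. The genes were picked because their levels were lower with dexamethasone and differed in how far, if at all, they returned when LiCl was added. Values of dexamethasone against control and of dexamethasone + LiCl against dexamethasone are therefore given for these genes as a description, with no test.

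Metatarsals came from Sprague Dawley rat fetuses at embryonic day 19 and were cultured for 72 h. Control bones (C) received the ethanol vehicle, dexamethasone bones the drug at 1 µM, LiCl bones the vehicle with LiCl at 10 mM, and dexamethasone + LiCl bones both drugs in these amounts. Each of the 4 groups had 3 libraries, each from a pool of about 20 bones, so that n = 3 pools per group throughout and no spread between single bones was measured. Poly-A RNA was sequenced, and totals ran from 9055581 to 21953446 counts per library. The 3 dexamethasone libraries lay between 9263078 and 11685463 counts, and the control libraries between 10761816 and 21953446, so low counts with dexamethasone rest on less depth. All 5 glucocorticoid receptor target genes used as a check were higher with dexamethasone, against control and against LiCl. Of these, Zbtb16 would not have passed the count filter without the dexamethasone libraries, where it was highest, so its call adds no support. Of 5 Wnt target genes, 4 were higher with LiCl, with and without dexamethasone (edgeR, adjusted p under 0.05).

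Blood vessels grow into cartilage models of long bones from the surrounding tissue, and vessel invasion precedes the replacement of cartilage by bone. Endothelial cells hold their junctions together with VE-cadherin, the product of Cdh5, and with the adhesion molecules encoded by Pecam1 and Esam. The SoxF factors act redundantly in vessel formation and in arterial and lymphatic differentiation, and sprouts are led by tip cells that respond to VEGF. Lithium inhibits the kinase GSK3 and so can raise Wnt/β-catenin signaling, and dexamethasone activates the glucocorticoid receptor.

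Cartilage and endothelial genes were both detected in the bones. Summed over 12 chondrocyte genes, levels were 75667 to 110559 CPM across the libraries. The 5 pan-endothelial genes together were at 149.3 to 165.0 CPM in control. CPM, scaled counts, put each gene's counts on a common library total by the trimmed mean of M-values (TMM). Fewer endothelial cells and less RNA per endothelial cell cannot be told apart in RNA of whole bones. CPM are not divided by transcript length, so levels are compared between groups and not between genes.

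The 5 pan-endothelial genes were lower with dexamethasone in every pool than in every control pool. Together they were at 63.8 to 67.6 CPM with dexamethasone, 140.3 to 149.8 CPM with LiCl and 73.6 to 83.9 CPM with dexamethasone + LiCl. Thus the combined group stood above dexamethasone alone, but far below both groups without dexamethasone.

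Cdh5 was at 54.5, 54.8 and 56.9 CPM in the control pools and at 21.0, 22.8 and 25.2 CPM with dexamethasone. With LiCl alone it was at 50.8, 50.9 and 56.0 CPM, and with dexamethasone + LiCl at 27.6, 28.4 and 32.8 CPM. All combined pools lay above all dexamethasone pools and below all LiCl pools. The log2 fold change was -1.27 (SE 0.09) for dexamethasone against control and 0.37 (SE 0.10) for dexamethasone + LiCl against dexamethasone. Of the CPM lost with dexamethasone, 20.5% (SE 5.79) were regained with LiCl. Across all 12602 genes tested, 5.49% were lower and 5.45% higher with dexamethasone than in control, and 3.82% were higher in the combined group than with dexamethasone at an adjusted p under 0.05. Pools did not overlap in those directions for 12.7% and 13.3% of genes.

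Pecam1, which encodes the adhesion molecule CD31, varied more within control, where it was at 27.5, 29.5 and 41.7 CPM. Dexamethasone pools were at 16.9, 17.8 and 20.2 CPM, LiCl pools at 23.2, 29.7 and 31.7 CPM, and pools with both drugs at 20.5, 21.5 and 26.5 CPM. The combined pools lay above the dexamethasone pools and overlapped the LiCl pools. The log2 fold change was -0.83 (SE 0.16) with dexamethasone and 0.31 (SE 0.17) when LiCl was added to it.

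Cd93 encodes a membrane glycoprotein of endothelial cells and also of some blood cells. Its control pools were at 41.5, 42.1 and 48.5 CPM and its LiCl pools at 43.4, 45.2 and 47.4 CPM. With dexamethasone it stood at 10.2, 12.3 and 12.3 CPM, and with both drugs at 9.58, 13.7 and 13.9 CPM. The groups with dexamethasone overlapped each other and stood far below the other groups. Its log2 fold change was -1.92 (SE 0.13) with dexamethasone and 0.07 (SE 0.15) when LiCl was added. Only 2.44% (SE 4.81) of the lost CPM were regained.

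Emcn encodes endomucin, a sialomucin found on capillaries and veins and, in bone, on the type H vessels near the growth plate. It was at 17.4, 17.4 and 20.1 CPM in control, 7.84, 9.65 and 10.8 CPM with dexamethasone, 14.0, 14.8 and 15.7 CPM with LiCl, and 10.3, 10.4 and 11.9 CPM with both. Dexamethasone pools and combined pools overlapped, while the LiCl pools lay between these and control. Its log2 difference was -0.94 (SE 0.13) for dexamethasone against control and 0.20 (SE 0.14) for the combined group against dexamethasone. Esam, a tight junction adhesion molecule, was low in all groups. Its pools were at 5.54, 5.76 and 7.24 CPM in control, 2.69, 2.69 and 4.45 CPM with dexamethasone, 3.72, 5.72 and 6.39 CPM with LiCl, and 4.04, 4.29 and 4.85 CPM with both drugs. The combined pools overlapped both the dexamethasone and the LiCl pools, 0.41 (SE 0.26) above dexamethasone on the log2 scale. Without dexamethasone replicate 2, its log2 fold change with dexamethasone was -1.18 in place of -0.88 (SE 0.25).

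Promoters are shown for Emcn and Esm1, a pan-endothelial gene and a tip cell gene that were both lowered, the 2 of the 10 members matched in the RefSeq promoter table (rat build GRCr8). Each runs 300 bases on the plus strand, from 250 bases before the transcription start to 50 after it. Capitals mark matches, on either strand, to a Sox motif (AACAAT), an ETS motif (CAGGAAG or CCGGAAG), a glucocorticoid receptor half-site (AGAACA) or a TCF/LEF motif (ATCAAAG).
Emcn, chr2:228564289-228564588: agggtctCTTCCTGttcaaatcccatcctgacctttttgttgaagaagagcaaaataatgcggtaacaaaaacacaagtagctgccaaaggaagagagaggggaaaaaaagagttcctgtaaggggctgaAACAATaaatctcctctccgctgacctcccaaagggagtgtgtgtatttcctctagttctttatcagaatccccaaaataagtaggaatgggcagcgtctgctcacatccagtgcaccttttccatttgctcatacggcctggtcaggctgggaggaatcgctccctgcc
Esm1, chr2:46609003-46609302: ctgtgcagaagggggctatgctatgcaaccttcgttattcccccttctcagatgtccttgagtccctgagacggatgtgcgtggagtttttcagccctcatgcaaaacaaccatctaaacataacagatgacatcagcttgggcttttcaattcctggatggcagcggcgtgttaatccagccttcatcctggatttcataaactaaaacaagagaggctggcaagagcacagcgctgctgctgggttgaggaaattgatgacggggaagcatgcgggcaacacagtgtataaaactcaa
The Emcn window held 1 Sox match 120 bases before the start and 1 ETS match, read on the reverse strand, 243 bases before it. None of the 4 motifs was found in the Esm1 window. Of 33469 rat promoter windows of this length, 11.7% held the Sox motif, 20.1% the ETS motif, 20.7% the glucocorticoid half-site and 3.63% the TCF/LEF motif, so such matches are common and were read as letters only.

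**Figure D1:**
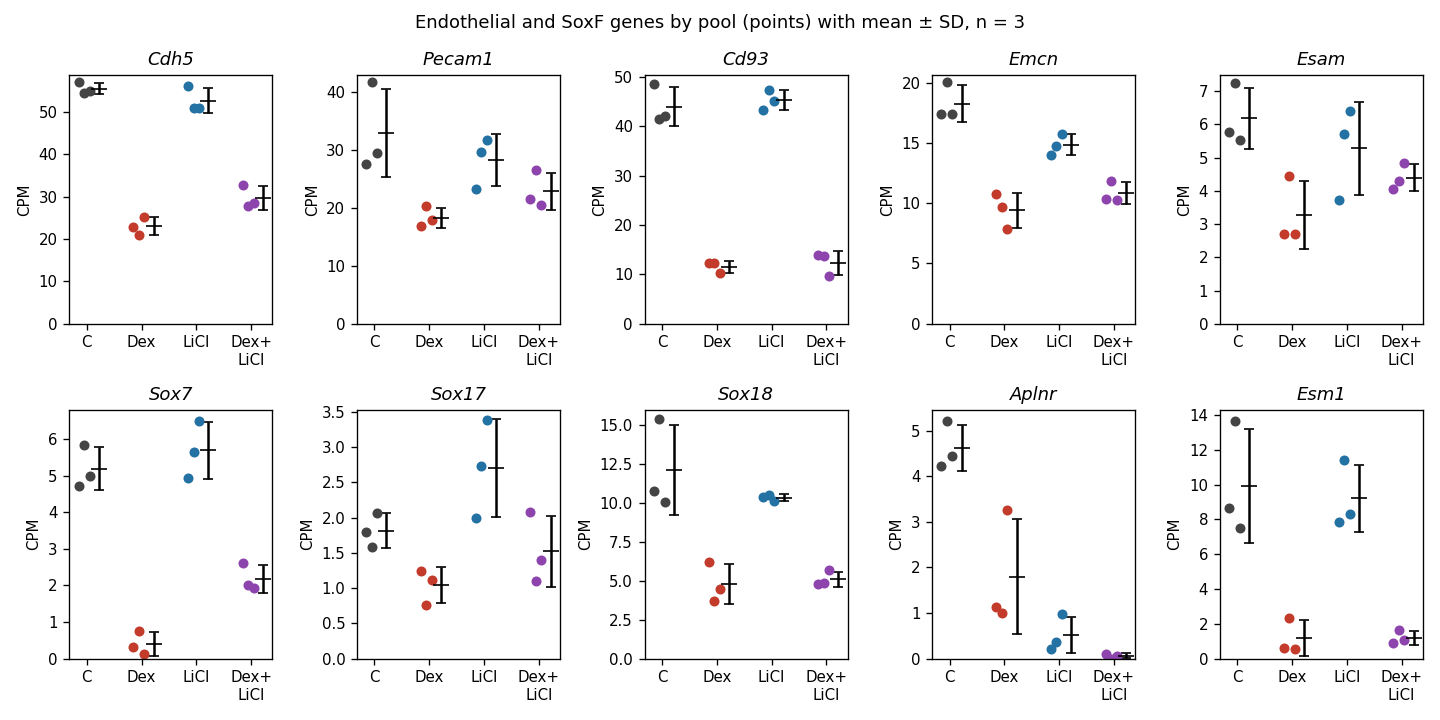
Level (CPM, y axis from 0, one scale per gene) of the 10 genes in each pool (points) of control (C), dexamethasone (Dex), LiCl and both drugs (Dex+LiCl), with mean ± SD of 3 pools. Every dexamethasone pool lies below every control pool for each gene, Sox7 partly returns with LiCl, and Aplnr is low in both groups with LiCl.

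The SoxF genes differed from one another in how far they fell and how far they came back. Sox7 was at 4.73, 4.99 and 5.85 CPM in control and at 4.93, 5.66 and 6.49 CPM with LiCl. With dexamethasone it was at 0.112, 0.310 and 0.755 CPM, which are 1, 3 and 9 counts against 63 to 105 counts in the control libraries. With dexamethasone + LiCl it was at 1.93, 2.01 and 2.62 CPM, or 22 to 33 counts. The 4 groups thus fell into 3 levels that did not overlap, with dexamethasone lowest and the combined group in between. What was left with dexamethasone was 7.57% of the control level, and with both drugs 42.1%. The log2 fold change was -3.58 (SE 0.35) with dexamethasone and 2.32 (SE 0.40) when LiCl was added. Without dexamethasone replicate 2, the pool with 9 counts, these values were -4.53 and 3.28. Summed over pools, the count ratio of dexamethasone to control was 0.0843 (95% interval 0.0443 to 0.147, counting error only). Sox7 was chosen for this fall, so the interval is a description and no test, and it leaves out the spread between pools.

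Sox18 was at 10.1, 10.8 and 15.4 CPM in control, 3.69, 4.48 and 6.21 CPM with dexamethasone, 10.1, 10.4 and 10.5 CPM with LiCl, and 4.81, 4.84 and 5.66 CPM with both drugs. The groups formed pairs by dexamethasone, and adding LiCl left the pools within the dexamethasone range. Its log2 fold change was -1.33 (SE 0.20) with dexamethasone and 0.11 (SE 0.22) when LiCl was added, and 4.22% (SE 10.5) of the lost CPM were regained. For Sox7 the regained share was 37.4% (SE 5.84).

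Sox17, known for its role in arteries, did not pass the count filter, since 1 library reached 60 counts. Its counts were 17 to 41 in control, 9 to 12 with dexamethasone, 28 to 70 with LiCl and 12 to 24 with both drugs. In CPM these were 1.58, 1.80 and 2.07 in control, 0.755, 1.12 and 1.24 with dexamethasone, 2.00, 2.73 and 3.39 with LiCl, and 1.09, 1.40 and 2.08 with both. Dexamethasone pools lay below the control pools and overlapped the combined pools. A looser filter, edgeR's filterByExpr, kept Sox17. In that fit LiCl against control gave 0.57 (SE 0.28, adjusted p = 0.211) and dexamethasone + LiCl against LiCl gave -0.87 (SE 0.30, adjusted p = 0.108), and neither passed.

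Aplnr, the apelin receptor, which is found on venous and sprouting endothelium and on some other cells, was low in both groups with LiCl. It was at 4.23, 4.43 and 5.20 CPM in control (94, 88 and 56 counts) and at 1.01, 1.14 and 3.25 CPM with dexamethasone (12, 11 and 29 counts). LiCl pools were at 0.214, 0.367 and 0.969 CPM (3, 7 and 20 counts), and pools with both drugs held 1, 0 and 1 counts. The order was control, dexamethasone, LiCl and both drugs, and no neighbouring groups overlapped. Its log2 fold change was -1.39 (SE 0.39) for dexamethasone against control, and -2.09 without dexamethasone replicate 3. Counts in the combined group were 0.0315 of those with dexamethasone after scaling (95% interval 0.00372 to 0.120, counting error only). As Aplnr was chosen with this comparison in view, the interval is a description and no test. In this gene the combined group was thus the lowest of the 4 rather than between control and dexamethasone.

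Esm1 encodes endocan, a secreted proteoglycan. It was at 7.51, 8.64 and 13.6 CPM in control, 0.560, 0.621 and 2.35 CPM with dexamethasone, 7.86, 8.33 and 11.4 CPM with LiCl, and 0.874, 1.05 and 1.64 CPM with both drugs. Dexamethasone libraries held 5, 6 and 28 counts and the combined libraries 8, 18 and 18. The groups with dexamethasone overlapped and so did the groups without it. Its log2 fold change was -2.95 (SE 0.39) with dexamethasone and -0.08 (SE 0.51) when LiCl was added. Without dexamethasone replicate 2 these were -4.03 and 1.00, so the second value depended on 1 library.

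Adding LiCl to dexamethasone therefore went with 3 kinds of difference. Cdh5, Pecam1 and Sox7 were higher in every combined pool than in every dexamethasone pool. Cd93, Emcn, Esam, Sox17, Sox18 and Esm1 overlapped, with regained shares from 0.139% (SE 7.20) for Esm1 to 62.5% (SE 39.7) for Sox17. Aplnr was lower in every pool. The background for lower pools without overlap in this comparison was 14.4% of genes, and 4.78% of genes were lower at an adjusted p under 0.05.

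LiCl alone was compared with control to ask whether lithium moved these genes without the glucocorticoid. The rule names the control pools but no difference between LiCl alone and control. Since the genes were chosen with results of these data known, the test is not independent evidence. Of the 9 genes past the count filter 1 passed, Aplnr, which was lower in all 3 LiCl pools. The log2 difference was -3.04 (SE 0.42, adjusted p = 0.00033, edgeR's quasi-likelihood test), and the scaled counts were 0.124 of control (95% interval 0.0819 to 0.182, counting error only). Aplnr passed the filter only through 2 control libraries, the group where it was highest, so its call describes the gene and adds no support. Leaving out control replicate 1 or 3 removed it from the fit, and 0 of the genes then passed in edgeR. With filterByExpr it stayed in and passed with any 1 library left out. Across all genes 5.90% were lower and 4.71% higher with LiCl.

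The other 8 genes past the filter did not pass in this comparison. Emcn was lower in all LiCl pools, as 16.4% of all genes were, with a log2 fold change of -0.29 (95% interval -0.54 to -0.04) and an adjusted p = 0.134 in edgeR. Cdh5 differed by -0.08 (95% interval -0.26 to 0.11), Cd93 by 0.04 (-0.21 to 0.28) and Pecam1 by -0.20 (-0.53 to 0.13). Esam differed by -0.20 (-0.67 to 0.27), Sox18 by -0.21 (-0.59 to 0.17), Sox7 by 0.15 (-0.31 to 0.62) and Esm1 by -0.08 (-0.70 to 0.54). Of these 8 intervals, all but that of Emcn include 0, and those of Esam, Sox7, Sox18 and Esm1 are the widest.

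The groups with LiCl were compared with each other to ask whether dexamethasone also went with lower levels when lithium was present. The combined pools had been used in choosing the genes, so this test is not independent of the choice either. Of the 9 genes past the filter, 6 were lower with dexamethasone + LiCl, against 3.09% of all genes lower and 3.79% higher. Since Sox7, Esm1 and Aplnr passed the filter only through groups without dexamethasone, this count describes them and adds no support. The log2 difference of Cd93 was -1.90 (SE 0.13, adjusted p = 1.3e-07, edgeR) and that of Cdh5 was -0.83 (SE 0.09, adjusted p = 1.9e-05). The value for Esm1 was -2.95 (SE 0.38, adjusted p = 0.00011, edgeR), for Sox7 -1.41 (SE 0.25, adjusted p = 0.0019) and for Sox18 -1.0 (SE 0.20, adjusted p = 0.0039). Emcn had -0.46 (SE 0.13, adjusted p = 0.038, edgeR), and lost the call in 7 of the 12 fits that left out 1 library. These were control replicate 1 and each of the LiCl and combined libraries, with adjusted p up to 0.163.

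Pecam1, Esam and Aplnr did not pass here. Pecam1 had a log2 fold change of -0.31 (95% interval -0.65 to 0.02) and Esam one of -0.27 (-0.76 to 0.23), and both intervals include decreases larger than the fitted values. Aplnr was lower in all combined pools, at 2 counts summed over 3 libraries against 30 with LiCl. The scaled ratio was 0.0962 (95% interval 0.0111 to 0.379, counting error only), with an adjusted p = 0.083 in edgeR. With the replicate number as a block its adjusted p was 0.049, and without dexamethasone replicate 3 it was 0.033.

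**Figure D2:**
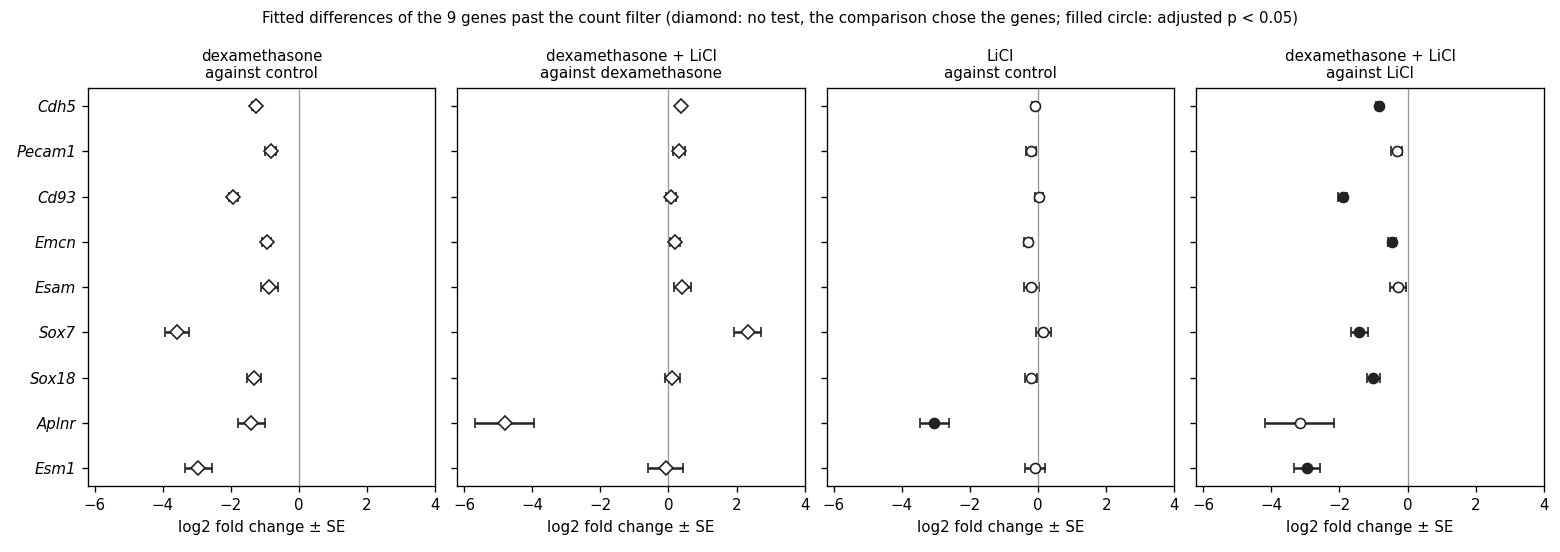
Fitted log2 fold changes (x axis) with SE for the 9 genes past the count filter, in 4 comparisons. Open diamonds carry no test, filled circles passed an adjusted p under 0.05 (edgeR) and open circles did not; Aplnr alone is filled for LiCl against control, and 6 genes are filled for dexamethasone + LiCl against LiCl.

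Levels relative to Cdh5 show which members moved by more or less than this junction gene within the same libraries. These ratios reuse the counts that chose the genes and are a description. Sox18 kept a near constant ratio, with means of 21.9, 20.9, 19.7 and 17.4 counts per 100 counts of Cdh5 in control, dexamethasone, LiCl and dexamethasone + LiCl, and overlapping pools. Sox7 was at 9.38 ± 1.24 (SD, n = 3) per 100 Cdh5 in control, 1.80 ± 1.62 with dexamethasone, 10.9 ± 1.99 with LiCl and 7.35 ± 0.616 with both drugs. Relative to Cdh5, its pools with both drugs (6.78 to 8.00) lay just below the control pools (8.31 to 10.7) and well above those with dexamethasone (0.444 to 3.60).

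Cd93 kept a lower ratio to Cdh5 in both groups with dexamethasone, at 51.0 ± 9.37 and 41.8 ± 7.93 per 100, against 79.4 ± 5.11 in control and 86.5 ± 8.07 with LiCl (SD, n = 3). The ratio of Esm1 was also lower in these groups, at 5.38 ± 5.04 with dexamethasone and 4.10 ± 1.67 with both drugs, against 18.0 ± 6.17 in control and 17.6 ± 4.34 with LiCl. Mean Pecam1 ratios were higher in the groups with dexamethasone, at 80.4 ± 14.0 and, with both drugs, 77.8 ± 15.8, against 59.6 ± 14.9 in control and 54.1 ± 11.1 with LiCl. Its control pools (48.4 to 76.5) overlapped those with dexamethasone (70.7 to 96.4) and with both drugs (65.7 to 95.7). Aplnr pools overlapped between control (7.44 to 9.54) and dexamethasone (4.80 to 12.9) on this scale, and were at 0.383 to 1.91 with LiCl and 0 to 0.333 with both drugs.

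**Figure D3:**
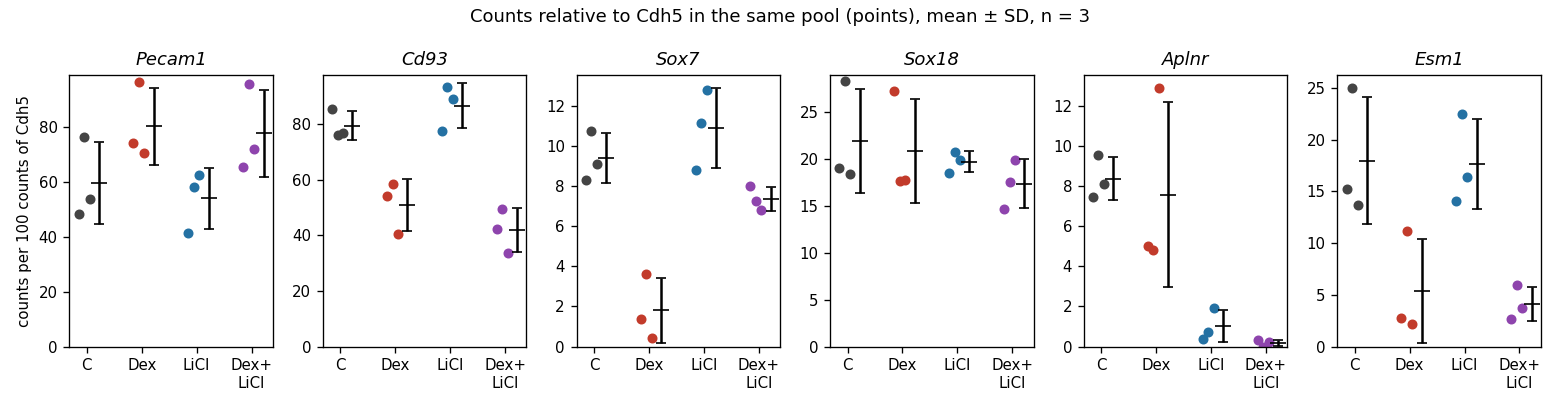
Counts per 100 counts of Cdh5 in the same pool (y axis from 0, one scale per gene) for 6 genes in control (C), dexamethasone (Dex), LiCl and both drugs (Dex+LiCl), with mean ± SD of 3 pools. Mean Sox18 stays between 17.4 and 21.9 in all groups, Sox7 falls to 1.80 with dexamethasone and is at 7.35 with both drugs, and mean Aplnr is at 1.00 with LiCl and 0.180 with both drugs.

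The other endothelial genes moved in both directions. Of 33 other endothelial genes 32 were in the files and 27 passed the count filter. With dexamethasone 17 of these were lower and 2 higher than in control, at a median difference of -0.86 on the log2 scale, beside 0.002 over all genes. Some of the 27, among them Mmrn2, Ecscr, Cyyr1, She, Ushbp1 and Myct1, passed the filter only through groups without dexamethasone. The count and the median describe such genes and add no support. Aqp1, a water channel also found in other cells, was at 413 ± 68.1 CPM (SD, n = 3) in control and 207 ± 4.29 CPM with dexamethasone (log2 fold change -1.0, SE 0.10, adjusted p = 7.7e-06, edgeR). The ETS factor Fli1 had -0.58 (SE 0.09, adjusted p = 0.00039, edgeR). Erg, an ETS factor that maintains endothelial identity, did not pass, at 65.9 ± 4.31 and 58.3 ± 2.05 CPM (-0.18, SE 0.08, adjusted p = 0.20, edgeR). Which cells of the bone gave this level of Erg was not measured. The scavenger receptor Stab1, shared by sinusoidal endothelium and macrophages, was higher with dexamethasone (0.96, SE 0.14, adjusted p = 0.00025, edgeR). Ramp2 of this list, named after its values were seen, was at 9.62 to 17.3 CPM in control and 17.8 to 27.5 CPM with dexamethasone.

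Kdr and Tie1 were chosen from this list after their values were seen. Kdr, the main VEGF receptor of endothelial cells, was at 27.0 to 34.5 CPM in control and at 4.03 to 6.31 CPM with dexamethasone (-2.55, SE 0.17, adjusted p = 6.0e-08, edgeR). It stayed at 3.65 to 5.46 CPM with both drugs, overlapping dexamethasone. The receptor Tie1 had -1.70 (SE 0.20, adjusted p = 2.5e-05, edgeR) with dexamethasone and 0.51 (SE 0.21, adjusted p = 0.16) when LiCl was added. Of the 27 genes, 17 were lower with dexamethasone and 8 passed in neither direction. Tek, Ptprb and Lmo2, also named after their values were seen, had means of 6.82, 10.8 and 15.6 CPM in control. With dexamethasone their means were 7.57, 12.3 and 15.6 CPM.

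When LiCl was added to dexamethasone, the median log2 difference of the 27 endothelial genes was -0.04, and 1 of them passed, Aqp1, which was lower (-0.42, SE 0.10, adjusted p = 0.019, edgeR). This call was lost without dexamethasone replicate 1 or 3 or any combined library (0 genes passed in edgeR), 2 or 3 genes passed without a control library, and 2 passed with the replicate block, both lower. With LiCl alone 5 of the 27 were lower than in control, with a median of -0.25, and 8 were with the replicate block. Without control replicate 2 or 3, LiCl replicate 1 or 3, or combined replicate 3, the count was 2 or 3. Named after their values were seen, these 5 were Aqp1 (-0.64), Egfl7 (-0.65), Fli1 (-0.29), Gpihbp1 (-0.87) and Plvap (-1.40), the last of which encodes the diaphragm protein of fenestrated capillaries. Gpihbp1 passed the filter only through control libraries, so its call adds no support. With both drugs against LiCl 12 were lower and 2 higher, with a median of -0.52. Genes that passed the filter only through groups without dexamethasone were counted here too, so this adds no support.

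The genes listed as tip cell genes other than Aplnr and Esm1 also moved in both directions. Of 13 in the files 11 were tested, and with dexamethasone 6 were lower and 1 higher than in control, at a median log2 difference of -0.60. Over all genes 5.49% were lower and 5.45% higher. Dll4, 1 of the 6, passed the filter only through groups without dexamethasone, so its call adds no support. The most abundant, the basement membrane genes Nid1 and Nid2 and the netrin receptor Unc5b, did not pass, while the semaphorin receptor Plxnd1 fell by 0.60 on the log2 scale (SE 0.08, adjusted p = 0.00016, edgeR). In control Nid2, Nid1, Unc5b and Plxnd1 were at means of 575, 388, 238 and 135 CPM. How much of these levels came from tip cells or other cells was not measured. When LiCl was added to dexamethasone, 2 of the 11 were higher and 1 lower, beside 3.82% and 4.78% of all genes. Plxnd1 rose by 0.30 (SE 0.08, adjusted p = 0.039, edgeR). The other 2 are named after their values were seen. Cxcr4, a chemokine receptor, was at 24.1 to 29.3 CPM in control, 5.49 to 6.38 CPM with dexamethasone and 10.3 to 11.6 CPM with both drugs, a rise of 0.86 (SE 0.13, adjusted p = 0.00072, edgeR) when LiCl was added. Angpt2, a ligand that destabilises vessels, was the gene higher with dexamethasone (1.06, SE 0.15, adjusted p = 0.00016, edgeR) and was lower when LiCl was added (-0.82, SE 0.15, adjusted p = 0.0031). LiCl alone gave differences from -0.42 to 0.91 (median -0.07), and both drugs against LiCl gave 4 lower and 1 higher.

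**Figure D4:**
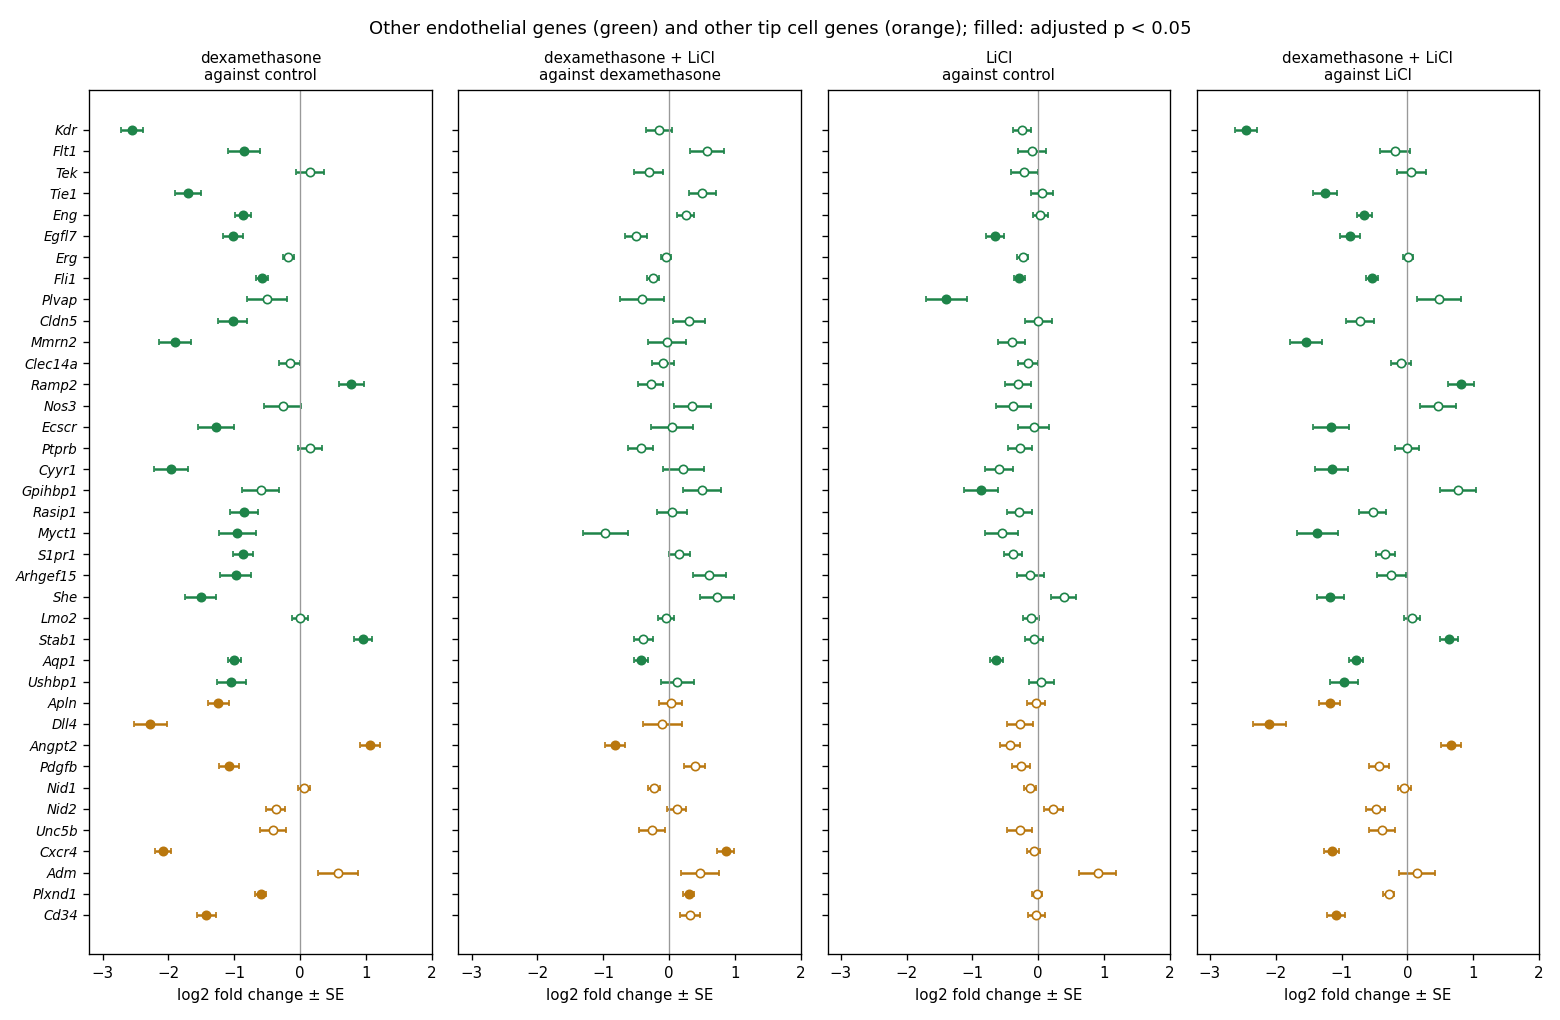
Log2 fold changes (x axis) with SE of 27 other endothelial genes (green) and 11 other tip cell genes (orange) in 4 comparisons, filled where the adjusted p was under 0.05 (edgeR). Kdr, Dll4 and Cxcr4 lie farthest left for dexamethasone against control, and Cxcr4 is farthest right when LiCl is added to dexamethasone.

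Genes of vessel subtypes were few above the filter. With dexamethasone 5.49% of all genes tested were lower and 5.45% higher than in control. Of 8 arterial genes 4 were tested, and with dexamethasone the gap junction gene Gja4 was lower (-1.51, SE 0.24, adjusted p = 0.00051, edgeR) and the VEGF co-receptor Nrp1 higher (0.31, SE 0.08, adjusted p = 0.018). Of 5 venous genes 3 were tested, and the venous factor Nr2f2 was higher (0.46, SE 0.12, adjusted p = 0.025, edgeR) and Nrp2 lower. Of 6 lymphatic genes 3 were tested. Flt4, the VEGF-C receptor, was lower (-2.14, SE 0.33, adjusted p = 0.00041, edgeR), and so was Pdpn (-0.63, SE 0.10, adjusted p = 0.00047), which cells other than lymphatic ones also express. Lyve1, shared with macrophages, was at 1.22 to 2.12 CPM in control and 3.11 to 4.24 CPM with dexamethasone, and Prox1 was at or under 0.65 CPM in every library. Neither Lyve1 nor Prox1 passed the filter. Gja4 and Flt4 passed the filter only through control libraries, the group where they were highest, so their calls describe the genes and add no support.

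Sox genes outside the SoxF group were measured as well. Of 14 in the files 8 were tested, at a median log2 difference of -0.15 with dexamethasone, and 1 passed. Over all genes 5.49% were lower and 5.45% higher, so 1 of 8 is near the background. The gene that passed was Sox4, a SoxC factor expressed in many progenitor cells, at 152 ± 8.39 CPM (SD, n = 3) in control and 77.6 ± 8.84 CPM with dexamethasone (-0.97, SE 0.09, adjusted p = 1.5e-06, edgeR). When LiCl was added, Sox4 differed by -0.02 (SE 0.09, adjusted p = 0.95). Sox9, the main cartilage factor, was at 355 ± 42.9 CPM in control and 374 ± 81.4 CPM with dexamethasone (0.07, SE 0.15, adjusted p = 0.80).

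Markers of other cells that share genes with endothelium are given beside these results. Of 9 macrophage genes tested, 5 were higher with dexamethasone than in control (Mrc1, Cd163, C1qa, C1qb and C1qc) and 1 was lower (Cd68, -0.51), while Aif1, Cd14 and Csf1r did not pass, at -0.58, -0.48 and -0.16. Cd163 passed the filter only through groups with dexamethasone, where it was highest, so its call adds no support. The summed level of the 9 genes was 86.1 to 136 CPM in control, 216 to 250 CPM with dexamethasone, 78.8 to 83.9 CPM with LiCl and 171 to 209 CPM with both drugs. Of 10 platelet genes 2 passed the filter. Gp1bb, Ppbp and Gp5 were at 0 in all libraries, and the summed level was 12.8 to 20.9 CPM across libraries. Of 12 pericyte and smooth muscle genes tested, with dexamethasone 1 was higher, Des, and 1 lower, Mcam, which endothelial cells also express. When LiCl was added to dexamethasone, 3 of these 12 were higher and 1 lower, so their direction was mixed. Of 8 erythroid genes in the files 2 were tested, and 1 of the 12 chondrocyte genes passed with dexamethasone, Hapln1, which was higher. Over all genes tested, 5.45% were higher and 5.49% lower with dexamethasone than in control. The part of these cells in the levels of the 10 genes was not tested.

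The genes whose profiles were most like those of the members over the 12 libraries are given as a description, since the points share the same groups. The mean profile of the 5 pan-endothelial genes was most like Cxcr4 (Pearson's r 0.97 of log2 CPM), followed by the matricellular gene Sparcl1, the growth factor gene Pdgfb and Mmrn2, an endothelial matrix gene, each at 0.96. Sox7 was most like Cxcr4 (0.97) and Sparcl1 (0.96), followed by Cd4 and Rgs16 at 0.95. Sparcl1 was at 87.1, 47.6, 80.6 and 62.7 CPM in control, dexamethasone, LiCl and both drugs. For Sox18 the closest were Sox4 and Sept1 (0.97), then Bmp2 and Fscn1 (0.96).

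For Esm1 the closest were Apln (0.98), which encodes apelin, the ligand of Aplnr, Dll4 (0.97), the Notch ligand of tip cells, LOC100125362 (0.97) and Mmrn2 (0.95). Apln was at 24.2 ± 4.99 CPM (SD, n = 3) in control, 10.1 ± 0.797 CPM with dexamethasone, 23.3 ± 3.43 CPM with LiCl and 10.4 ± 1.02 CPM with both drugs. The ligand thus stayed at its control level with LiCl in these means, where its receptor gene was at 0.517 ± 0.399 CPM against 4.62 ± 0.511 CPM in control. Apln differed from control by -0.04 with LiCl (SE 0.14, adjusted p = 0.91, edgeR). Aplnr was most like genes that are not endothelial markers, namely Mpzl1 (0.97), Leprel2, Prss12 and Cthrc1 (each 0.96). Cthrc1, a secreted collagen-triple-helix gene, was at 392, 310, 260 and 197 CPM in control, dexamethasone, LiCl and both drugs, the same order as Aplnr.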

How the data were processed

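RNA-seq libraries of cultured rat metatarsals were compared in 4 conditions with 3 pools each. The authors deposited unnormalized counts for each gene symbol. They had aligned the reads with Subread, dropped duplicates with Picard, run HTSeq-count and then merged technical replicates, and the most abundant transcripts can be undercounted. The submitters' notes name a human build (hg19) for these rat libraries, so the annotation behind the counts is not settled. The kit keeps strand, but the strand setting used for counting is not given in the sources used here.

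A gene was kept where 2 or more of the 12 libraries held 60 or more counts (12602 of 30045 on the deposited counts), limits taken from the paper's methods, and 9 of the 10 members passed. After TMM scaling, 1 model with condition alone was fitted to the 12 libraries in edgeR 4.0.16 and R 4.3.3, and tested with the two-sided quasi-likelihood F-test. Benjamini-Hochberg adjustment covered the 12602 genes. An adjusted p under 0.05 was a pass, whatever the fold. The labels do not say what the pools of a group shared. The paper describes each pool as coming from 1 rat and treatment group, with 3 rats used. Pools of different groups may thus share a rat. The main fit used no pairing of pools between groups, so p-values measure the spread between pools and leave out any rat that groups shared. Intervals of count ratios are exact 95% intervals for counting error. The regained share is the mean CPM of dexamethasone + LiCl minus that of dexamethasone, over control minus dexamethasone.

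The members and all gene lists were chosen with earlier results of these data known. Besides the members, the text names the 4 genes of each list with the highest mean CPM, genes whose absence matters, the genes of the 2 drug checks and the 4 genes most like each profile (log2 of CPM + 0.5), or says that a gene was chosen after its values were seen. Promoters are RefSeq GRCr8. Alternatives were RLE scaling, DESeq2 1.42.0, filterByExpr, no count filter, the replicate block, a fit of the compared groups alone, leaving out each library, thinning to the smallest library and a 2-fold minimum. Deviations of same-numbered libraries from their group means had correlations of 0.205 to 0.303 between control and LiCl, 0.242 to 0.417 between LiCl and dexamethasone + LiCl, 0.196 to 0.509 between dexamethasone and dexamethasone + LiCl, and 0.0136 to 0.140 between control and dexamethasone. The paper describes 3 successive experiments, each with bones in every treatment group, without tying the numbers to them. For the replicate block, equal numbers were taken as pairs. Same-numbered libraries of the remaining group pairs were correlated as well. They were 0.131 to 0.267 between control and dexamethasone + LiCl, and 0.144 to 0.354 between dexamethasone and LiCl. Correlations between differently numbered libraries were not computed, so these values alone do not settle whether equal numbers mark pairs. The correlations were weakest between control and dexamethasone, where the block left the count of other endothelial genes at 19. Figures were drawn with matplotlib 3.10.9 in Python 3.11.15.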

Additional observations from a re-analysis of the deposited data

Results flagged for a closer look

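Gja4, a gap junction gene of arterial endothelium, was at 3.27 to 4.46 CPM in control, 1.12 to 1.55 CPM with dexamethasone, 2.26 to 2.47 CPM with LiCl and 1.64 to 2.16 CPM with both drugs. LiCl pools lay below all control pools, with a log2 difference of -0.68 (SE 0.20, adjusted p = 0.042, edgeR), while the pools with both drugs lay above all dexamethasone pools, with one of 0.60 (SE 0.27, adjusted p = 0.19). The difference between these opposite differences was 1.28 on the log2 scale (SE 0.33), with an adjusted p = 0.47 for the interaction of the drugs in edgeR, and did not pass. Gja4 passed the count filter only through control libraries, where it was highest, so its call with LiCl describes the gene and adds no support.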

How the results depend on the processing

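Of 235 member fold changes recomputed under alternatives other than leaving out a library, 230 kept their direction and their side of the threshold, or moved by less than the spread between pools. The exceptions were Cd93 with LiCl against control, which changed sign after thinning to the smallest library (-0.018), Emcn in dexamethasone + LiCl against LiCl, which no longer passed after thinning (-0.46, adjusted p = 0.059), and Aplnr in the same comparison, which passed with DESeq2 (adjusted p = 0.045), with no count filter (0.0068) and with the replicate block (0.049), over a range of 0.0068 to 0.381. For Emcn the range was 0.025 to 0.163. Thinning lowers the totals of all libraries but the smallest, and most in the largest. The cause was not tested. With LiCl against control, 0 members passed after thinning in edgeR, since Aplnr then fell below the filter and 6 members were tested. Leaving out libraries gave 0 to 1, and 1 in each fit with filterByExpr, an alternative chosen after seeing the data, in which the log2 fold change of Aplnr was -3.90 to -2.75 (adjusted p 9.7e-05 to 0.0038). With dexamethasone + LiCl against LiCl, leaving out libraries gave 5 to 7 passing members. Esm1 with LiCl against control ranged from -0.27 to 0.19 without single libraries, and changed sign without control replicate 2 or LiCl replicate 1. Of the other endothelial genes, 19 passed with dexamethasone against control, 12 after thinning, 9 with a 2-fold minimum and 15 to 19 without single libraries. When LiCl was added to dexamethasone 1 passed, 4 with no count filter, 2 with the replicate block, 3 with only the groups compared, 0 with a 2-fold minimum and 0 to 3 without single libraries (0 without dexamethasone replicate 1 or 3 or any dexamethasone + LiCl library, 2 or 3 without a control library). With LiCl against control 5 passed, 8 with the replicate block, 3 with only the groups compared, 1 with a 2-fold minimum and 2 to 6 without single libraries (2 or 3 without control replicate 2 or 3, LiCl replicate 1 or 3, or dexamethasone + LiCl replicate 3). With dexamethasone + LiCl against LiCl 14 passed, 9 after thinning, 7 with a 2-fold minimum and 10 to 15 without single libraries. The replicate block changed no other call of a member. Low counts with dexamethasone, 1 to 9 for Sox7 and 5 to 28 for Esm1, limit the precision of their values.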
